A study of Mus musculus with 2 samples.

Results

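The 9 regulators of upper-layer cortical neurons were described by their open chromatin: Cux1, Cux2, Rorb, Pou3f1, Pou3f2, Pou3f3, Lmo4, Lhx2 and Bcl11a. They were taken by symbol from the GENCODE M21 annotation of the mouse assembly mm10, and all 9 symbols were found among 21938 protein-coding genes on chromosomes 1 to 19, X and Y. The rule itself uses no measured value, but the members were chosen with earlier results of these data known. The data were 2 DNase-seq libraries of 1 group, replicate 1 and replicate 2, made from frontal cortex of male mice at 14 days. The mice were B6CASTF1/J, the F1 hybrid of the laboratory strain C57BL/6J and the wild-derived strain CAST/EiJ, and each library came from tissue of 3 males. The biosamples are labelled as separate, yet they carry 1 donor number in common, and part of the spread between replicates could be technical. As 2 libraries of 1 group allow no contrast between conditions, no p-value was computed. The tissue was not sorted, so for every region fewer cells of a type and less accessibility per cell cannot be told apart.

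Upper-layer neurons form the superficial layers of the neocortex, and many of them send axons to other cortical areas, including across the corpus callosum. The CUT homeodomain factors Cux1 and Cux2 mark these layers and shape dendrites and synapses, and the nuclear receptor Rorb marks layer IV. The POU class III factors act in the birth and migration of upper-layer neurons, Lhx2 and Bcl11a act earlier and more widely in cortical patterning and neuron identity, and Lmo4 is a LIM-only adaptor that binds no DNA itself. In DNase-seq, nuclei are treated lightly with DNase I, which cuts where DNA is not wrapped in nucleosomes. Dense cuts form a peak, and a short protected gap within a peak is called a footprint.

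A promoter was taken as the 1000 bp to either side of every annotated start of a gene, and a distal region as one farther than that from every start site of a protein-coding gene. Each gene was described over its span and 50 kb on both sides, called its window. Peaks of both libraries that overlapped by at least 1 bp were joined into 1 shared region. Peak heights are the authors' own deposited values on a scale that was set per library and not stated, and in each pair of heights replicate 1 is given first. All positions are 1-based in mm10.

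The tallest distal region of each gene, by the mean percentile rank of its height over both libraries, is printed so that the open sequence can be seen beside its values. The sequences are those of the mm10 reference on the plus strand, at most 300 bases round the middle of the region, and capitals mark bases that lay in footprints of both libraries. The F1 mice also carry the CAST/EiJ allele, which may differ. The regions were chr5:136487681-136487940 for Cux1, chr5:122088981-122089220 for Cux2, chr4:124708841-124709140 for Pou3f1, chr4:22495001-22495280 for Pou3f2, chr1:42693908-42694180 for Pou3f3, chr19:18889241-18889520 for Rorb, chr3:144242141-144242340 for Lmo4, chr2:38403261-38403500 for Lhx2 and chr11:24076361-24076660 for Bcl11a.
Cux1 distal: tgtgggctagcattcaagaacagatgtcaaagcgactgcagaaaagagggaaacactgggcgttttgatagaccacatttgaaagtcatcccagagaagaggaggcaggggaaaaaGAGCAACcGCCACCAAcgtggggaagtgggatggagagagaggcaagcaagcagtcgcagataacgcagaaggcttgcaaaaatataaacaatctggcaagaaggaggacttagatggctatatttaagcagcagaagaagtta
Cux2 distal: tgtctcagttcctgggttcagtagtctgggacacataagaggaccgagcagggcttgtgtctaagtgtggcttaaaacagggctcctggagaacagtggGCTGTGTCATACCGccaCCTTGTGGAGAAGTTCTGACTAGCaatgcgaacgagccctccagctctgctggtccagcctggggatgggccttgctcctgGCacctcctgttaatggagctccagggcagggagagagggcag
Pou3f1 distal: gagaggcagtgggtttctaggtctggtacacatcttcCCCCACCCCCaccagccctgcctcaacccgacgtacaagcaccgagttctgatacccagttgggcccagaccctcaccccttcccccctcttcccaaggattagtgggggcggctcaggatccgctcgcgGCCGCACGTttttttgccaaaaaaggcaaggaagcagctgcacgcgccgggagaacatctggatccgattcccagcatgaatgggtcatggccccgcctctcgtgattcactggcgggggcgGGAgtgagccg
Pou3f2 distal: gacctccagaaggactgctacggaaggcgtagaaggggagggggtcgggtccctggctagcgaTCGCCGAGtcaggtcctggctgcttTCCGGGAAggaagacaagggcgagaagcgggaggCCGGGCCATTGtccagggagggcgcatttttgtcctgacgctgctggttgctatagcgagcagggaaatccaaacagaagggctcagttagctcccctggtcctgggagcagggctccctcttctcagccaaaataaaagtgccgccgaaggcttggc
Pou3f3 distal: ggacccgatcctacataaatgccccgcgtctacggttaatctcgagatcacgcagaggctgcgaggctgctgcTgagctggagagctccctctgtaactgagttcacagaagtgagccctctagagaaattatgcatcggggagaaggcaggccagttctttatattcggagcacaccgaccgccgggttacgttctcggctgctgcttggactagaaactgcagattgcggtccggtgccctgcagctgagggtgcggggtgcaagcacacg
Rorb distal: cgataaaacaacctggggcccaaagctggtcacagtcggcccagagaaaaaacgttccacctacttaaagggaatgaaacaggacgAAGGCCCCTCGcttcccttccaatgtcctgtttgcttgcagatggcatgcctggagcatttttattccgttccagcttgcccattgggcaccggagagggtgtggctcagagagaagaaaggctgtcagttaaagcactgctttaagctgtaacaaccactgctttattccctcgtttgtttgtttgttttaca
Lmo4 distal: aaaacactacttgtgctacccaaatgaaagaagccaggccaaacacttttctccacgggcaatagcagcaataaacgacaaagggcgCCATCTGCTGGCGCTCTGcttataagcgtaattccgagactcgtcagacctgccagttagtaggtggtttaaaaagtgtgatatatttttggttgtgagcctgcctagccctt
Lhx2 distal: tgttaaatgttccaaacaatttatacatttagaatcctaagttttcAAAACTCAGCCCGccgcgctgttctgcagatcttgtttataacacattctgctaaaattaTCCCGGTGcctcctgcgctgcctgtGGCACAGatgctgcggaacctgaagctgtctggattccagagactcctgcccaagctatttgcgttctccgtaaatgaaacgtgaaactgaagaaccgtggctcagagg
Bcl11a distal: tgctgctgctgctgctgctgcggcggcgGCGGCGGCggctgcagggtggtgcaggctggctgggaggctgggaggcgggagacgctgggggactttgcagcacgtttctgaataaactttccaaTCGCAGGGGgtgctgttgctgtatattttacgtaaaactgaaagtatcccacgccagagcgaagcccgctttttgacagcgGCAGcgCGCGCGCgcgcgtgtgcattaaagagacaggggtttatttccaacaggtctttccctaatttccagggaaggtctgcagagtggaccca

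Among the printed stretches, Cux2 held the most bases in footprints of both libraries, 40 of 240, and Pou3f3 the fewest, 1 of 273. The others held from 11 of 280 bases at Rorb to 28 bases at Lhx2 and at Bcl11a. At Pou3f1 the printed stretch is part of a region of 540 bp, chr4:124708721-124709260, and it held 22 of the region's 29 such bases.

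Both libraries called a promoter peak at all 9 genes, against 59.7% of the 21938 protein-coding genes, and for each gene both libraries placed the tallest promoter peak at the same site. The heights spread widely. Pou3f3 was highest with 9.24 and 9.68 (mean 9.46 ± 0.311, SD, n = 2), and Cux2 was lowest with 1.11 and 1.18 (1.15 ± 0.0521, SD, n = 2). The members' median was 2.3 in replicate 1 and 2.56 in replicate 2, below the 3.03 and 2.96 of all genes whose promoter was called in both. Between Pou3f3 and Cux2 stood Lmo4, Pou3f2, Pou3f1, Lhx2, Rorb, Cux1 and Bcl11a, in this order of the mean. The libraries' values overlapped between the neighbours Pou3f2 and Pou3f1, Rorb and Cux1, and Cux1 and Bcl11a, so these pairs have no order beyond their spread. The plot of promoter and tallest distal heights shows the order for both libraries.

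**Figure D1:**
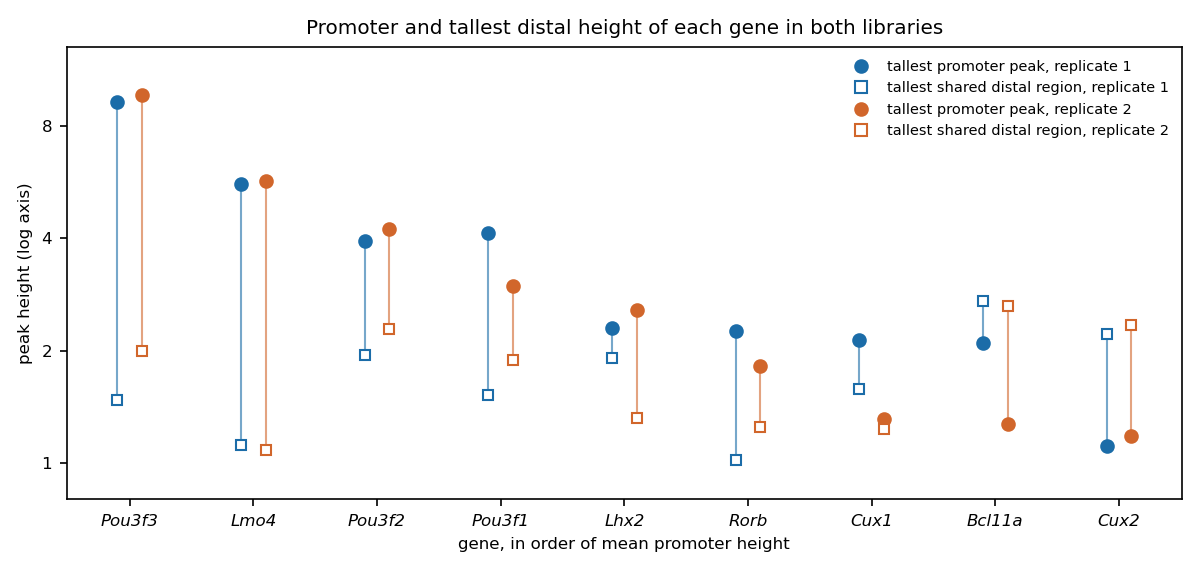
Height of the tallest promoter peak (filled circles) and of the tallest shared distal region (open squares) of each gene, on a log axis, with replicate 1 in blue and replicate 2 in orange. The circle lies above the square for 7 genes in both libraries, and below it at Bcl11a and Cux2.

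Each gene's window also held at least 1 shared distal region, 9 of 9 against 74.4% of all protein-coding genes. The windows held 50 shared distal regions in all, from 2 at Pou3f1, Lmo4 and Lhx2 to 11 at Cux2. Because long genes have long windows, the count was also set against length. The median density was 0.215 shared distal regions per 10 kb of window, against 0.135 over all protein-coding genes, whose quartiles were 0 and 0.262. Pou3f3 (0.931), Cux2 (0.374), Bcl11a (0.357) and Pou3f2 (0.284) lay above the upper quartile, and the other 5 lay between the median and the upper quartile. The count rested on the peaks called: 21 shared distal regions remained with the authors' shorter peak list, and single libraries alone held 69 (replicate 1) and 82 (replicate 2).

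**Figure D2:**
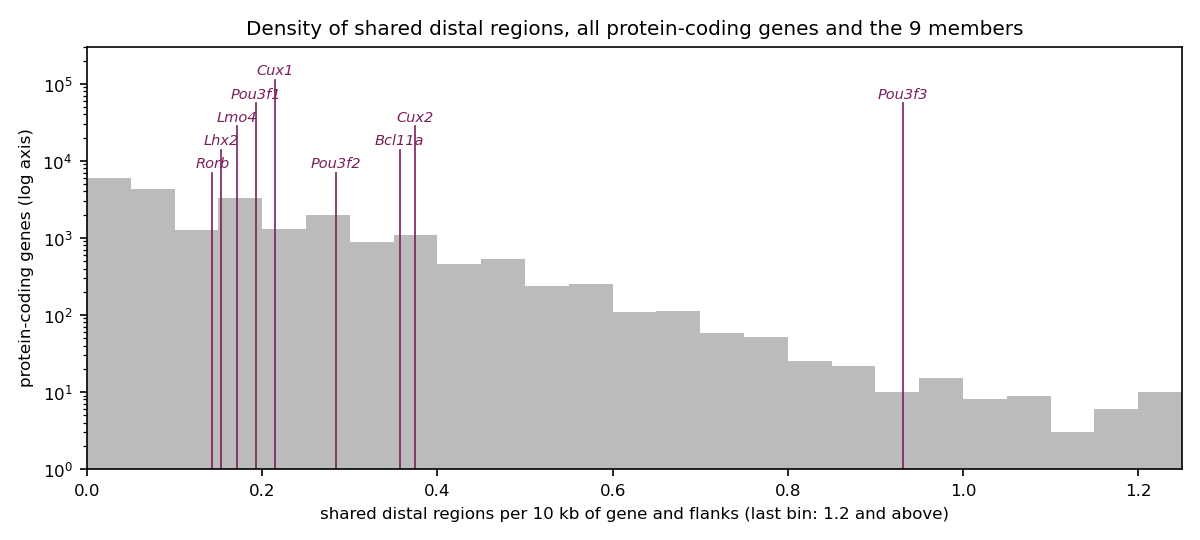
Number of protein-coding genes (log axis) by how many shared distal regions they held per 10 kb of window, with a vertical line at each of the 9 genes. Pou3f3 stands at 0.931 and the other 8 genes lie between 0.143 and 0.374.

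Cux1 encodes a CUT homeodomain factor and is long, 319 kb on the minus strand of chromosome 5 (136248135 to 136567490). Its tallest promoter region, chr5:136567181-136567440, covered 5′ untranslated and coding bases of the first exon and had heights of 2.13 and 1.31 (1.72 ± 0.577, SD, n = 2). These values stood at percentiles 35.9 and 19.7 of genes with a promoter peak, so replicate 1 was the higher library on both measures. Of its 14 annotated start sites, 10 had a peak in both libraries, all within 2058 bp of the 5′ end. A site 204195 bp downstream had a peak in replicate 1 alone (0.705), and 3 internal sites had none. The 9 shared distal regions gave 0.215 per 10 kb, percentile 68.9 of all genes. Of these, 6 were intronic, and the tallest, printed above, lay in an intron 79679 bp from the 5′ end with heights of 1.58 and 1.23. Next by rank came chr5:136252981-136253220 in an intron near the 3′ end (1.27 and 1.18) and chr5:136201881-136202160 beyond the gene (1.54 and 0.959). The start of Prkrip1, in the downstream flank, carried a taller region than Cux1 itself, with 4.38 and 3.86.

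Cux2, the paralogue of Cux1, also lies on the minus strand of chromosome 5 (121856366 to 122050102), with 194 kb. Its promoter was the lowest of the 9 in mean height, at percentiles 14.9 and 16.6, and was made of 2 shared regions at the annotated 5′ end. Only these sites were open in both libraries, 2 of 11, and internal sites at 121924921 and 121916734 had a peak in replicate 1 alone (0.776 and 0.764). In contrast to the promoter, the distal density of 0.374 per 10 kb stood at percentile 88.8, here of all protein-coding genes. Of the 11 shared distal regions, 6 were taller than the promoter in replicate 1, 4 in replicate 2 and 4 in both. The tallest were the upstream regions chr5:122088981-122089220 (2.08 and 2.06), chr5:122081001-122081240 (1.87 and 2.34), chr5:122063601-122063820 (2.14 and 1.12) and the intronic chr5:121892281-121892560 (2.22 and 1.79). Of these, chr5:122063601-122063820 was below the promoter in replicate 2. The upstream regions lie 13609 to 38999 bp before the 5′ end. The promoter stretch outside the untranslated region, chr5:122050103-122050320, is printed for comparison with the taller upstream region above.
Cux2 promoter: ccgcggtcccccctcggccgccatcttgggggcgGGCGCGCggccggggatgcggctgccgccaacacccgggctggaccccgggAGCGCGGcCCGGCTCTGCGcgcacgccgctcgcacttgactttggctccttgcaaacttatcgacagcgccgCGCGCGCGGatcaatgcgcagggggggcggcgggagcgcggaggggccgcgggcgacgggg

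The flanks beyond the 3′ ends of Cux1 and Cux2 hold starts of genes that are related as well, Sh2b2 and Sh2b3, which encode SH2 domain adaptor proteins. The Sh2b2 start had a shared region of 1.9 and 1.78, and the Sh2b3 start one of 2.25 and 2.42. At the Cux2 end the start of Pheta1 was taller still, with 3.09 and 2.88. All 3 of these exceeded the promoter of the neighbouring Cux gene in replicate 2, and those of Sh2b3 and Pheta1 in both libraries.

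The POU class III genes have 1 exon and 1 annotated start site each, and all 3 sites were open in both libraries. Pou3f3, which encodes Brn1, is a gene of 7.41 kb on the plus strand of chromosome 1 (42695768 to 42703176). Its promoter heights of 9.24 and 9.68 stood at percentiles 91.8 and 92.6 of genes with a promoter peak. The region was narrow, 140 bp across the start site. It held 3 footprints in replicate 1 and 4 in replicate 2, and all 3 of replicate 1 overlapped one of replicate 2. The 87 bases before the annotated start, chr1:42695681-42695767, are shown because 37 of them lay in footprints of both libraries.
Pou3f3 promoter: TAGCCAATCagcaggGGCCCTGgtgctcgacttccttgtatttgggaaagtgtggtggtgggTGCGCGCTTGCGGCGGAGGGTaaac

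The window of Pou3f3 held 10 shared distal regions, 0.931 per 10 kb, and 55 of the 21938 genes, itself included, reached this density. This count depended on the settings. It was 1 with the shorter peak list, 3 with a stricter rule of overlap between peaks and 7 with start sites of all annotated genes. It was 6 with flanks of 10 kb. With flanks of 100 kb it stayed at 10 in a longer window, so the density was lower there. The heights of the 10 regions were modest next to the promoter: the tallest values were 1.47 in replicate 1, at chr1:42691301-42691485, and 1.99 in replicate 2, at the region printed above. The promoter was 6.29 and 4.88 times as high as these. Of the regions, 6 lay upstream, all within the annotated lincRNA Pantr1, and 1 lay in the coding exon (chr1:42697901-42698560, 0.896 and 1.33). The 3 downstream regions lay within AC122898.1, a transcript annotated as sense-overlapping. Of the upstream regions, 2 were within 1000 bp of a start of Pantr1, and the region printed above is 1 of them. The downstream region chr1:42713325-42713623 was within 1000 bp of a start of the noncoding gene Pantr2. They count as distal because only protein-coding start sites were used.

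Pou3f2, which encodes Brn2, is 5.59 kb long on the minus strand of chromosome 4 (22482780 to 22488366). Its promoter heights were 3.94 and 4.22 (4.08 ± 0.198, SD, n = 2), at percentiles 60.9 and 64.7 of genes with a promoter peak. All 3 shared distal regions lay within 9545 bp upstream. They had heights of 1.95 and 2.28 (chr4:22495001-22495280), 1.71 and 1.59 (chr4:22491261-22491640) and 1.43 and 1.35 (chr4:22497741-22498080). The region chr4:22491261-22491640 was within 1000 bp of a start of the lincRNA Gm30731. No shared region lay downstream within 50 kb, where replicate 2 alone had peaks of 0.892 and 0.676.

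Pou3f1, which encodes Oct6 (also called SCIP), is 3.85 kb long on the plus strand of chromosome 4 (124656807 to 124660655). Its promoter region, chr4:124657321-124657540, lay with all 220 bases inside the annotated 5′ untranslated region, its middle 624 bp past the start site. The heights of 4.14 and 2.97 (3.56 ± 0.831, SD, n = 2) differed more between the libraries than at the other POU genes. Its 2 shared distal regions lay far from the gene, 32476 bp upstream (0.908 and 1.3) and 52184 bp downstream of the start (1.52 and 1.89). With a promoter window of 500 bp the region no longer counted as promoter, and Pou3f1 then had none. With flanks of 100 kb the tallest distal region was 7.22 and 8.32, above the promoter in both libraries.

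Rorb, the gene of a retinoid-related orphan receptor, spans 181 kb on the minus strand of chromosome 19 (18930605 to 19111196). Its 5′ promoter had heights of 2.25 and 1.82 (2.03 ± 0.302, SD, n = 2). The internal promoter 110079 bp downstream, where the other annotated transcripts start, had no peak in either library, so 1 of 4 start sites was open. A shared intronic region, chr19:19005221-19005460, lay 4224 bp from that internal promoter, with heights of 1 and 0.667. The density of 0.143 per 10 kb was the lowest of the 9 genes and stood at percentile 51.2. The tallest distal region (1.02 and 1.25) was also the lowest of the 9 in replicate 1. It lay 221815 bp from the 5′ end, in the downstream flank and within another gene, Trpm6. The other downstream region, chr19:18888901-18889120 (0.848 and 0.567), also lay within Trpm6 and covered coding bases of that gene.

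Lmo4 spans 16.7 kb on the minus strand of chromosome 3 (144188530 to 144205220). Its promoter heights of 5.6 and 5.69 (5.64 ± 0.0618, SD, n = 2) stood at percentiles 75.1 and 76.3 of genes with a promoter peak. The region lay 351 bp upstream of the 5′ end (chr3:144205461-144205680), held 6 footprints in each library, and all 6 of replicate 1 overlapped one of replicate 2. It is printed because 75 of its 220 bases lay in footprints of both libraries.
Lmo4 promoter: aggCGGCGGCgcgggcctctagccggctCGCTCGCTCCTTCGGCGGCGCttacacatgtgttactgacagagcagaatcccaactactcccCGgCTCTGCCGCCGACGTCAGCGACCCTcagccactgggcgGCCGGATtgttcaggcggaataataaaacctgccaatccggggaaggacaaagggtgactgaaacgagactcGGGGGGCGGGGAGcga

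Another cluster of start sites of Lmo4, 2257 to 2920 bp inside the gene, shared a lower region of 1.47 and 1.33. In total 6 of 7 start sites were open in both libraries. Its 2 shared distal regions were low, 1.12 and 1.08 at 37021 bp upstream and 0.848 and 0.967 inside the gene. The promoter was 4.99 and 5.29 times as high as the taller values of these. The region inside the gene was within 1000 bp of a start of Gm43445, annotated as sense-intronic.

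Lhx2, the LIM homeodomain gene, spans 30.5 kb on the plus strand of chromosome 2 (38339281 to 38369733). No peak lay at its annotated 5′ end, nor at the start sites 207 and 1811 bp further on. The open promoter lay at a start site 11478 bp inside the annotated gene, with heights of 2.3 and 2.56 (2.43 ± 0.181, SD, n = 2), and its 360 bases are annotated as untranslated. The region also lay within 1000 bp of another start site, so 2 of 7 sites were open. Its shared distal regions lay downstream, chr2:38403261-38403500 (1.91 and 1.29) and chr2:38395261-38395545 (0.931 and 1.32), and none lay within the gene or upstream.

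Bcl11a, which encodes the zinc finger factor CTIP1, spans 96.1 kb on the plus strand of chromosome 11 (24078056 to 24174123). Its tallest promoter region, chr11:24081036-24081580, was intronic and near a start site 2614 bp inside the gene, with heights of 2.1 and 1.27 (1.68 ± 0.59, SD, n = 2). At the 5′ end itself, where 4 start sites lie within 117 bp, replicate 2 had a peak of 1.23 and replicate 1 had none. The tallest distal region, printed above, lay 1545 bp upstream of the 5′ end and was taller than the promoter in both libraries, with 2.72 and 2.63. These heights stood at percentiles 97.2 and 97.1 of all distal peaks of the library, shared or not. It lies at a start of the lincRNA Gm12063, and counts as distal because only protein-coding start sites were used. Next in rank was an intronic region, chr11:24144181-24144520, with 1.7 and 1.64. All 7 shared distal regions lay inside the gene or upstream, at 0.357 per 10 kb.

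**Figure D3:**
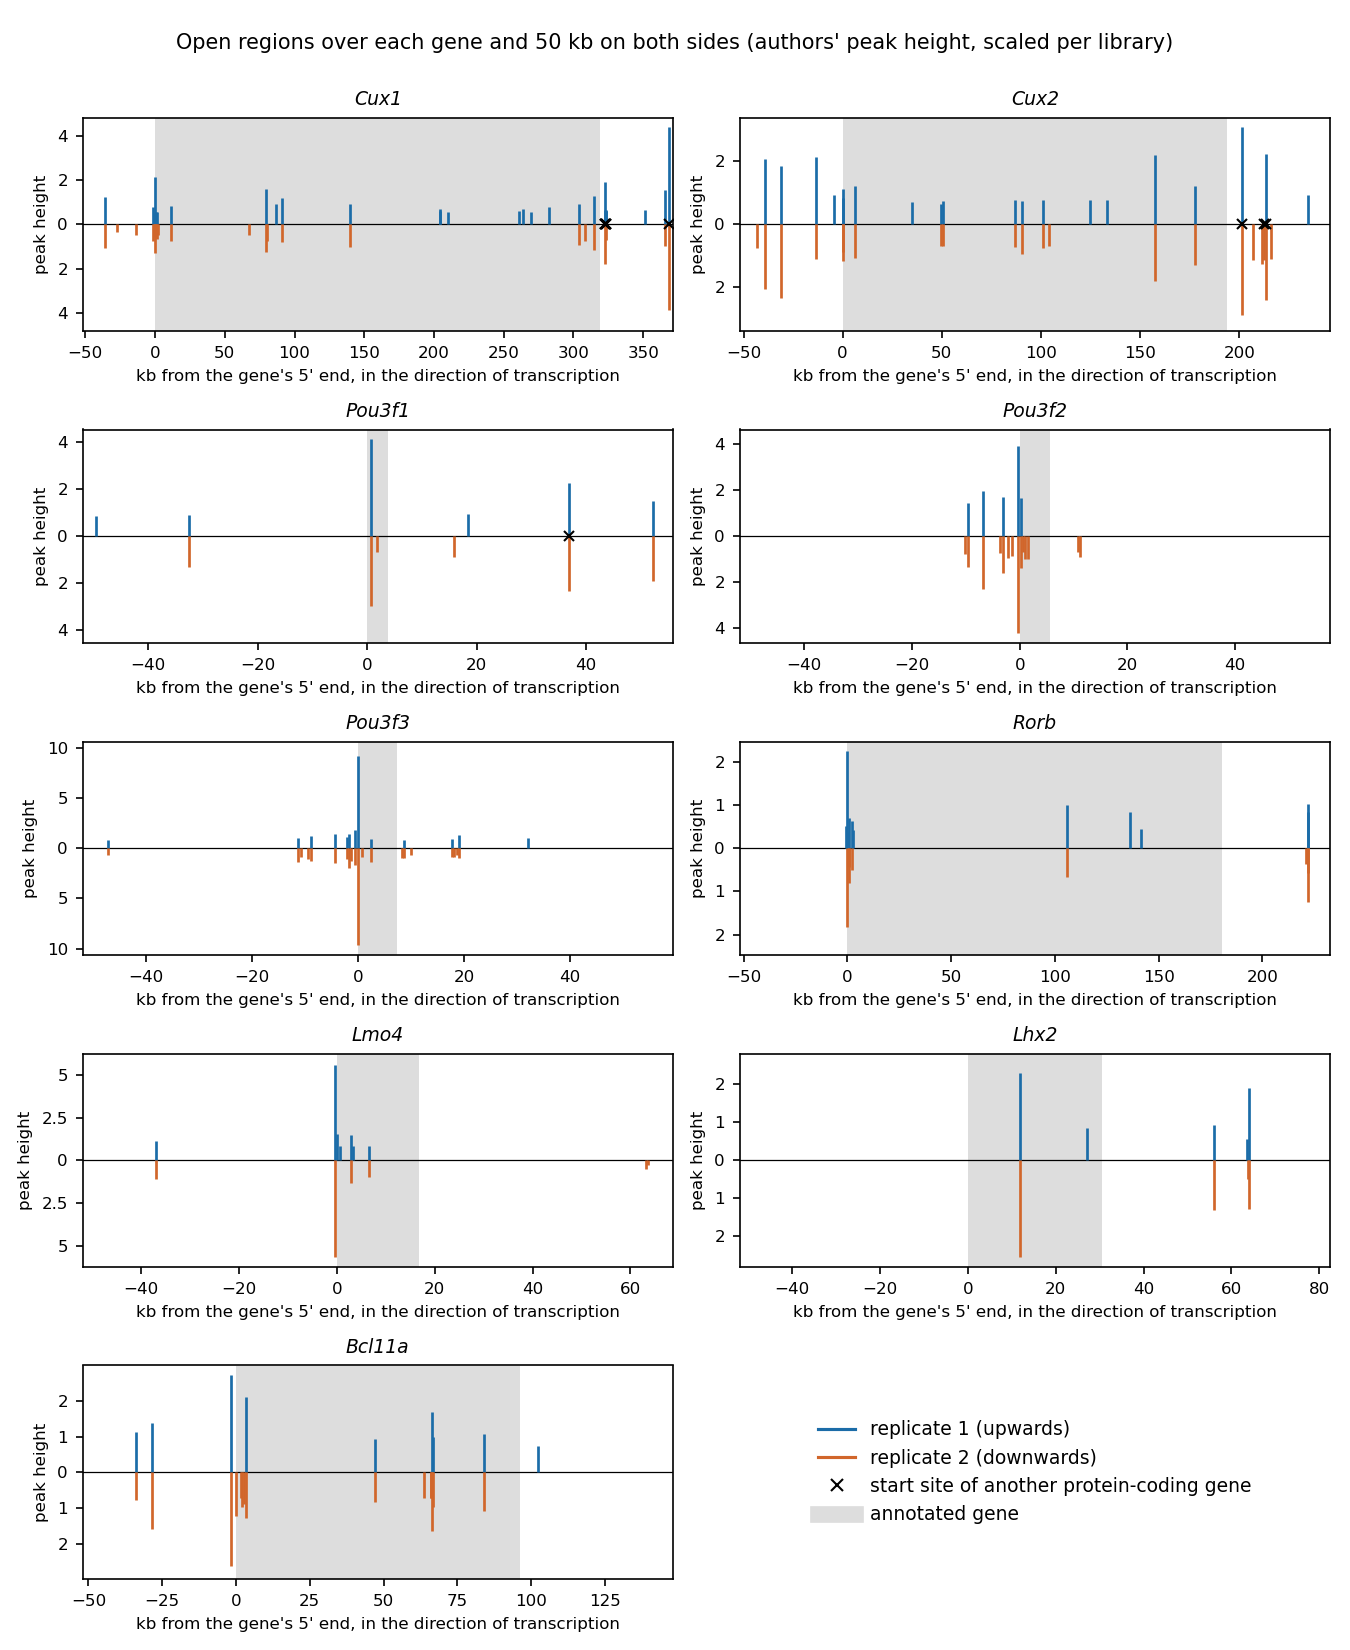
Peak height of every open region against its distance from the gene's 5′ end in kb, 1 panel per gene, with replicate 1 upwards, replicate 2 downwards and the annotated gene in grey. Crosses mark regions at start sites of other protein-coding genes, and the Pou3f2 and Pou3f3 panels show the regions crowded around the gene.

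Counted by start site rather than by gene, the members did not stand out. Of their 52 annotated start sites, 25 (48.1%) had a peak in both libraries, against 49.2% of 93513 start sites of protein-coding genes. A further 3 had a peak in replicate 1 alone, 5 in replicate 2 alone, and 19 had none. All 5 of replicate 2 alone belonged to Bcl11a, and those at its 5′ end share 1 peak of 1.23. Start sites close together can share a peak and are not separate observations. Most of the 10 open sites of Cux1 have the same tallest region, with 2.13 and 1.31. The closed sites lay at Cux2 (7), Lhx2 (5), Cux1 (3), Rorb (3) and Lmo4 (1), as the plot of start sites shows.

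**Figure D4:**
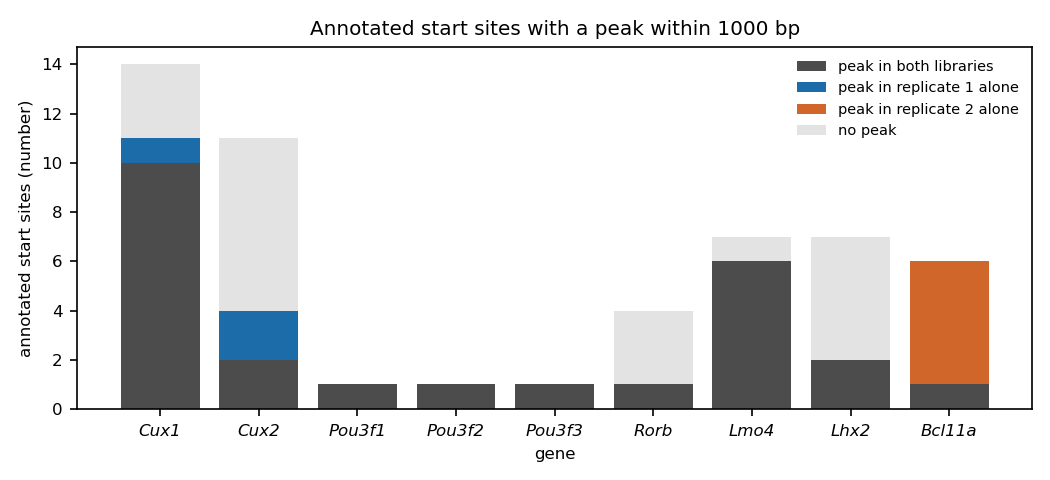
Number of annotated start sites of each gene with a peak within 1000 bp in both libraries (dark grey), in replicate 1 alone (blue), in replicate 2 alone (orange) or in none (light grey). Cux1 has 10 open sites of 14 and Cux2 has 2 of 11.

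The tallest distal region was above the promoter in both libraries at 2 of 9 genes (22.2%), Cux2 and Bcl11a, against 24.3% of the 11204 genes with both kinds of region. The members' share was near that of all genes. The Cux2 call held with promoter windows of 500 and 2000 bp, flanks of 10 and 100 kb, start sites of all genes and the shorter list. Bcl11a lost it with a window of 2000 bp and with start sites of all annotated genes, where its tallest distal region became a promoter region, and with the shorter list, where replicate 1 had no promoter peak. It had no such call with the gene's 5′ end alone either, where replicate 1 again had no promoter peak.

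Over the windows, 17 shared regions at the members' own promoters had median heights of 1.86 and 1.33, and the 50 distal regions 1.12 and 1.08. The ratio of these medians was 1.67 in replicate 1 and 1.23 in replicate 2, lower than the 1.9 and 2.05 over all shared regions. The ratio did not hold with the peaks of 1 library taken by themselves: it was 0.917 in replicate 1, below 1, and 1.01 in replicate 2. Own promoter regions had a median GC content of 65.2% and distal ones 56%, against 63.1% and 51.7% over all shared regions, so base composition moved with the class and its part in the heights was not tested. A further 6 shared regions lay at start sites of neighbouring genes, with medians of 2.27 and 2.37.

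The libraries had close values in the shared regions. Over the 73 shared regions of the windows the log2 ratio of replicate 2 to replicate 1 had a median of -0.05, against -0.06 over all 53659 shared regions. Of the 73, 1 lay outside the central 95% of all regions, which ran from -0.89 to 0.59. It was chr5:122063601-122063820 upstream of Cux2, with a log2 ratio of -0.94. At the tallest promoter regions of Cux1 and Bcl11a the log2 ratio was -0.70 and -0.73, lower than at the other members and within that range.

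**Figure D5:**
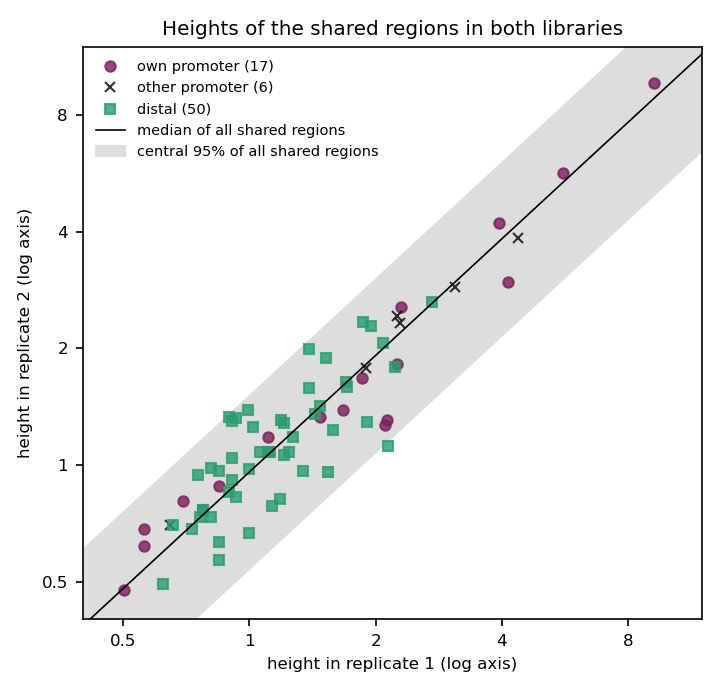
Height in replicate 2 against height in replicate 1 for the 73 shared regions of the windows, on log axes, by class of region. The line is the median ratio and the grey band the central 95% of all shared regions, and 1 distal region lies below the band.

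Regions called in 1 library alone were lower. There were 31 in replicate 1, with a median height of 0.717, and 44 in replicate 2, with 0.742. In 8 of each the other library listed bases with a false discovery rate below 0.05 in its cut rate track, without a called peak there. The tallest of replicate 1 was 1.55, at the 5′ end of Lmo4 (chr3:144205081-144205360), where replicate 2 listed bases down to a false discovery rate of 0.000322. The tallest of replicate 2 was 1.27, downstream of Cux2 (chr5:121838704-121838880).

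These regions were unevenly spread over the genes. Pou3f2 had 0 in replicate 1 and 9 in replicate 2, Pou3f3 had 1 and 8, and Bcl11a had 1 and 7. Cux1 had 12 and 7, and Rorb 5 and 2. A difference towards replicate 2 of at least that size was found for 2.97% of all protein-coding genes at Pou3f2, 4.35% at Pou3f3 and 5.61% at Bcl11a, and 1.7% of genes had a difference towards replicate 1 of at least that at Cux1. The central 95% of genes ran from 4 more in replicate 1 to 10 more in replicate 2. Of the 9 members only Cux1 lay outside this range. The counts were not scaled to window length, and the Cux1 window was the longest, at 419 kb. The cut rate tracks listed 1833 and 4855 bases over the Pou3f2 window, 3583 and 6650 over Pou3f3, and 2253 and 3448 over Bcl11a, more in replicate 2 at each. Rorb, with 2958 and 2359, had more in replicate 1. Cux1 did not follow its regions, with 6999 bases in replicate 1 and 7561 in replicate 2. Over all 9 windows they listed 27925 and 36059 bases, and the part of library depth in this was not tested.

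Every member had bases in footprints of both libraries in a shared promoter region, 9 of 9 against 91.1% of the 13040 genes with such a region. Own promoter peaks held 12.1 footprints per kb of peak in replicate 1 and 10.3 in replicate 2. Distal peaks held 9.43 and 10.7, so that promoters were denser in replicate 1 and not in replicate 2. The direction in replicate 2 turned with the settings: promoters held 11.1 against 10.4 with a promoter window of 500 bp, 11.4 against 10 with 2000 bp, 15.8 against 13.9 with the shorter list and 10.3 against 10.2 with flanks of 100 kb. Over all peaks the values were 11.2 and 11.8 at promoters and 8.08 and 9.67 at distal sites. Footprints overlapped one of the other library more often at promoters, 55.4% and 54.2%, than at distal sites, 46.1% and 30.7%, as they did over all peaks (66.5% and 51.1% against 45.5% and 35.9%). In replicate 2, 5 of 5 promoter footprints of Cux2 and 3 of 3 each of Pou3f1 and Lhx2 overlapped one of replicate 1. At Bcl11a 1 of 8 did so in replicate 2, and 2 of 2 in replicate 1 overlapped one of replicate 2. Promoter peaks of Bcl11a covered 205 bp in replicate 1 and 881 bp in replicate 2.

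Short consensus sequences were searched on both strands in 300 bp round the middle of each region. They were chosen for factors of this gene set and for common promoter and neuronal factors. The POU octamer ATGCAAAT was found in 0 of 17 own promoter and 0 of 50 distal windows, against 1.15% and 2.31% of all. The homeodomain core TAATTA was also found in 0 of 17 and 0 of 50, against 1.67% and 5.84% of all. The CUX sequence ATCGAT occurred in 1 of 17 own promoter windows (5.88% against 0.77% of all), that of Cux1 itself, and in 0 of 50 distal ones (0.821% of all). The Cux1 match lay outside footprints shared by both libraries. The receptor half-site AGGTCA was found in 1 of 17 and 4 of 50, shares of 5.88% and 8% against 10.2% and 12% of all. None of these matches lay with its middle base in footprints of both libraries.

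The GC box GGGCGG was the commonest at promoters, in 9 of 17 (52.9%) against 58.7% of all, and in 5 (29.4% against 27.1%) it lay in footprints of both libraries: Cux1, Pou3f1, Pou3f2, Lmo4 and Lhx2. At distal regions it was found in 11 of 50 (22%) against 12.9% of all. At distal regions the E-box CAGATG, which NEUROD factors bind, was found in 17 of 50 distal windows (34%) against 31.6% of all, and the E-box CAGCTG in 12 of 50 (24%) against 28%. At own promoters these E-boxes were found in 4 of 17 (23.5% against 13%) and 2 of 17 (11.8% against 18.1%). The AP-1 sequence TGANTCA was found in 4 of 50 (8%) against 14.1%, and in 0 of 17 own promoters against 4.73%. The cyclic AMP response element TGACGTCA (2.89% of all promoter and 0.685% of all distal regions) and the EGR sequence GCGTGGGCG (1.4% and 0.283%) were found in 0 of 17 and 0 of 50. Of the 50 distal windows, 4 held the MEF2 consensus (8% against 4.75% of all), 1 the NFI consensus (2% against 0.156%) and 0 the NRF1 consensus (0.176% of all), and none of the 3 was found in the 17 own promoter windows (2.63%, 0.0367% and 1.65% of all). These shares describe letters in a window and not binding.

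A CTCF core was added to the search after the sequences had been seen. It reads CCA, any 3 bases, G, any 2 bases and GGC, and it can overlap the E-boxes. It was found in 4 of 17 own promoter windows (23.5% against 12.5% of all) and in 12 of 50 distal windows (24%) against 19.7% of all shared distal regions, and in 7 of the distal ones (14%) its middle lay in footprints of both libraries, against 8.69%. The 7 were 2 each at Cux1 and Cux2 and 1 each at Pou3f1, Lmo4 and Bcl11a. At Cux2 the match in the printed upstream region is GCCACCTTGTGG, on the minus strand at 122089093 to 122089104, and the intronic match near the 3′ end is CCAGCAGGGGGC on the plus strand at 121872336 to 121872347. At Cux1 the matches are CCACCAGAGGGC on the plus strand at 136202007 to 136202018 and GCCCTCTAGTGG on the minus strand at 136253101 to 136253112. In both pairs the match at the lower coordinate reads on the plus strand and that at the higher one on the minus strand. This order depends on the matches kept. Other distal matches of Cux1, outside shared footprints, read on the plus strand from 136476466 and 136569029. At Cux2, distal matches outside shared footprints read on the minus strand from 121948752 and on the plus strand from 121948753. A match at the Sh2b3 start, on the plus strand from 121836774, lay in footprints of both libraries and was left out because its region is not distal. The Lmo4 site matched on both strands. How often such an order occurs over all regions was not computed.

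Other genes of the pathway and of related families were set beside the members. Of 17 other upper-layer genes, 16 were matched to the annotation. A promoter peak in both libraries was found for 14 (87.5%), against 59.7% of all protein-coding genes. Tle3, a corepressor gene, had the tallest (10.1 and 8.96) and Nectin3, an adhesion gene, the next (3.91 and 3.2). Lpl (0.549 and 0.776) and Lamp5 (0.693 and 0.601, at different sites) were lowest, Rgs8 had a peak in replicate 1 alone and Cartpt in replicate 2 alone. Of 14 deep-layer genes, 13 had one, with Tle4 (25 and 22.2) and Nfia (6.57 and 6.02) tallest and Crym (0.764 and 0.592) and Sox5 (0.86 and 0.809, at different sites) lowest, and Fezf2 had none. The median density of shared distal regions was 0.169 per 10 kb for the other upper-layer genes and 0.13 for the deep-layer genes. It was 0.215 for the members and 0.135 for all genes. Of the marker lists described below, excitatory neuron (0.262), oligodendrocyte (0.259), microglial (0.292) and astrocyte (0.453) genes had higher medians than the members. Interneuron genes (0.168) and genes of other brain regions (0.178) had lower ones, so a high density was not particular to the members.

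Among 13 relatives of the members, 9 (69.2%) had a promoter peak in both libraries, near the 59.7% of all protein-coding genes. Pou3f4, the X-linked class III POU gene, had 2.85 and 2.97 and no shared distal region in its window, unlike its 3 relatives among the members. Bcl11b, the relative of Bcl11a that marks deep-layer neurons, had 2.89 and 2.05 with 6 shared distal regions. Lhx1, Lhx6, Lhx9 and Pou4f1 had no promoter peak in either library.

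The tissue label was checked on marker lists. A promoter peak in both libraries was found for 7 of 8 excitatory neuron genes, 4 of 8 interneuron genes, 2 of 5 astrocyte genes, 1 of 4 microglial genes, 0 of 5 genes of myelinating oligodendrocytes and 1 of 8 genes of other brain regions, which was the dopamine receptor gene Drd1. Over all protein-coding genes the share was 59.7%. A promoter without a peak did not leave the window without open regions. In the order of the lists above, the windows held 28, 16, 34, 19, 21 and 14 shared distal regions. The libraries held 75753 and 77035 peaks and 156390 and 202779 footprints. Their smallest step of height was 0.0119 and 0.00834, and no counting interval is given, as read totals were not used here.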

How the data were processed

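DNase-seq was measured in 2 libraries of mouse frontal cortex, 1 group, each at 14 days. Per the labels and the deposited file descriptions, peaks, footprints and cut rates were made per library in assembly mm10. The aligner, the peak and footprint callers and software versions are not given in the sources used here. For each peak the authors deposited a signal per peak, its height, which was a whole multiple (within 0.05) of 1 step per library. The cut rate track deposited by the authors holds false discovery rates, which are q-values, for bases below 0.05, 22.3 and 24.8 Mb in replicates 1 and 2. The deposited footprints carry 0.01 in every row as their p-value, read as the calling threshold.

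The longer of the deposited peak lists was used. Genes, start sites and untranslated regions came from GENCODE M21, and sequence from mm10. The tallest promoter and distal regions per member were named, with neighbours taller than the promoter and the extremes of the comparison lists. The members and lists were chosen with earlier results of these data known. Percentiles rank a gene among all protein-coding genes, or a region among its class, as descriptions without a test. Each value is printed for both libraries, or with its SD and n = 2, which is the precision available, as depth was not used. Alternatives were the peak list, promoter window, flanks, start sites, footprint overlap and each library left out. Counting steps were tested on simulated data. Python 3.11.15 with numpy 2.4.6, pandas 2.3.3, pysam 0.24.0 and matplotlib 3.10.9 was used. The symbol Nov had no match in the annotation and was not analysed here. Printed promoter sequences leave out annotated untranslated bases.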

Additional observations from a re-analysis of the deposited data

How the results depend on the processing

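Of 83 recomputed values, 67 stayed within the limits set, 15 moved and 1 changed direction, and the cause was not tested unless named. The limits were a fixed fold change for counts and the SD between the 2 libraries for other values. They were wide, as 7 promoters in place of 9 and a height ratio of 1.01 in replicate 2 counted as within them. Some of the 67 could not change. Overlap of footprints over all classes does not depend on the promoter window, nor promoter footprints per kb on the flanks. With 1 library left out, footprints per kb stay the same and the 9 promoters remain. The 9 promoters open in both libraries became 8 with a window of 500 bp (without Pou3f1), 8 with the shorter list (without Bcl11a) and 7 with the gene's 5′ end alone (without Lhx2 and Bcl11a). Shared distal regions numbered 21 with the shorter list, 32 with 10 kb flanks (a shorter window) and 70 with 100 kb, and with 1 library left out 69 to 82. Genes with a taller distal region numbered 1 with a window of 2000 bp, with the shorter list and with start sites of all genes, and 3 with 100 kb flanks. The ratio of promoter to distal height fell to 0.917 (replicate 1 alone) and 1.01 (replicate 2 alone). Footprints per kb with the shorter list were 16.7 (promoter) and 13.2 (distal) in replicate 1 and 15.8 and 13.9 in replicate 2, and 8.3 for distal peaks of replicate 1 with 10 kb flanks. Footprints overlapping the other library, 51.9% and 39.6% over all classes, were 62.9% and 54.3% with the shorter list and 34.3% and 26.6% when each had to cover 50% of the other, and have no value with 1 library left out. No paired analysis was possible because there was 1 group. Read depth was not used, so a promoter without a called peak may lie under the calling limit.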
